A study of Homo sapiens with 2 samples.

Results

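The respiratory chain genes described here encode the subunits of complexes I to IV and of the ATP synthase (complex V), which sit in the inner mitochondrial membrane. They were chosen by symbol: NDUFA, NDUFB, NDUFC, NDUFS and NDUFV genes, SDHA to SDHD, the UQCR genes, COX4 to COX8 genes, the ATP5 genes, and the protein genes of the mitochondrial genome. A gene also needed at least 100 UMIs (unique molecular identifiers, the molecule tags that are counted) over both deposited matrices. Of 102 such symbols among 36601 genes in the files, 91 reached this minimum. Of these, 78 are nuclear genes (36 of complex I, 4 of complex II, 8 of complex III, 12 of complex IV and 18 of complex V). The other 13 are all the protein genes of the mitochondrial genome (7 of complex I, 1 of complex III, 3 of complex IV and 2 of complex V). NDUFA4 was grouped with complex IV, of which it is a subunit. The minimum fell in a wide gap: NDUFA5, the member with the fewest UMIs, had 867, and NDUFA6-DT, the symbol just below it, had 55.

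The cells were HUVECs, primary endothelial cells of human umbilical veins, cultured for about 48 h to a confluent lining of a microfluidic device with 50 µm channels. Both groups were then perfused for 4 h with red blood cells (RBCs). The hRBC cells saw healthy red cells alone. The 5% pdRBC cells saw a suspension in which 5% of the otherwise healthy red cells had been treated with nystatin and washed in high sucrose, which raised their hemoglobin concentration (MCHC) to 40 to 42 g/dL and models the stiffness of sickle red cells. Red cells were lysed with ACK buffer before capture in both groups. With 1 library of 5′ single-cell sequencing per group, differences between them carry no check over replicates, and none is tested. All intervals are 95% intervals of counting error (exact Poisson for levels, exact Clopper-Pearson for folds) and hold no spread between devices or cultures.

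The chain takes electrons from NADH at complex I and from succinate at complex II, passes them through coenzyme Q, complex III and cytochrome c to oxygen at complex IV, and pumps protons at complexes I, III and IV. The ATP synthase lets the protons back and makes ATP. The subunits come from both genomes, so that each complex except complex II needs transcripts made in the nucleus and in the mitochondrion. Endothelial cells are known to make much of their ATP by glycolysis, and their mitochondria are also studied as a source of signals such as reactive oxygen.

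The libraries differed in depth per cell, which bears on every value below. Cells with at least 1000 UMIs, at least 500 genes and at most 20% mitochondrial UMIs were kept. There were 2555 kept hRBC cells with a median of 2175 UMIs and 13335148 UMIs in all, and 1601 kept 5% pdRBC cells with a median of 9566 UMIs and 16127985 UMIs in all. The barcodes that were not kept held 3.19% mitochondrial-member UMIs in the hRBC library (1303 barcodes) and 20.9% in the 5% pdRBC library (34 barcodes). The libraries shared 9 cell barcodes as deposited and 6 after the filter. All 10 endothelial markers were detected, at a summed 4029 and 3811 CPM (UMIs scaled to the library's total, where 10000 CPM are 1% of its UMIs) in hRBC and 5% pdRBC cells. Red cell markers summed to 15 and 4 UMIs, with HBB at 12 and 0 and both HBA genes at 0. Markers of platelets (13 and 27 UMIs, PF4 and PPBP at 0), T and NK cells (46 and 48, nearly all TRAC), B cells (26 and 25, MS4A1 at 0), monocytes (5 and 10), neutrophils (0 and 0) and epithelium (4 and 2) were at or near 0. Fibroblast and mural markers summed to 370 and 329 CPM, nearly all of it RGS5 (369 and 328 CPM), and markers of cycling cells to 192 and 129 CPM, with all 8 lower in 5% pdRBC cells.

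The nuclear respiratory chain genes were lower in the endothelial cells perfused with 5% pdRBC. Their summed level was 17095 CPM in hRBC cells and 14924 CPM in 5% pdRBC cells, 1.15-fold lower (1.14 to 1.15). The difference was broad: 70 of 78 genes were below their hRBC level, with a median log2 fold of -0.20 and a range from -0.63 to 0.16. Over the 11110 genes with 100 or more UMIs the median log2 fold was 0.02, and 45.9% were below 0 (48.4% of genes with 1000 or more UMIs). A gene was counted as lower or higher where it differed at least 1.25-fold with an interval that leaves out 1. By this count 19 nuclear genes were lower and 0 higher, against a background of 3.60% of all 11110 genes lower and 5.23% higher (2.48% and 2.40% of the 4796 genes with 1000 or more UMIs). The interval alone left out 1 for 51 nuclear genes on the lower and 2 on the higher side, against 12.2% and 15.3% of all genes (19.7% and 20.8% of those with 1000 or more UMIs). At 1.1-fold, 47 nuclear genes were lower and 2 higher, against 9.80% and 13.2% of all genes (14.2% and 16% of those with 1000 or more UMIs).

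The mitochondrially encoded genes differed little in sum over all kept cells, and not in one direction. They made up 1.99% of UMIs in hRBC cells and 1.95% in 5% pdRBC cells (19867 and 19463 CPM), 1.02-fold lower (1.02 to 1.03). Of the 13 genes, 9 were below and 4 above their hRBC level, and 3 were counted as lower: MT-ND3, MT-ND6 and MT-ATP8. Per nuclear-member UMI, hRBC cells held 1.16 and 5% pdRBC cells 1.30 mitochondrial-member UMIs. The sum was not stable in sign, since it was higher in 5% pdRBC cells by 0.04 on the log2 scale among cells with 5000 or more UMIs and by 0.05 when each cell was thinned to 2000 UMIs. Shallow cells differed more. The sum was 1.97-fold higher (1.90 to 2.04) at 1000 to under 2000 UMIs per cell (44 5% pdRBC cells). At 2000 to under 5000 UMIs it was 1.42-fold higher (1.40 to 1.44). In the ranges from 5000, 10000 and 20000 UMIs its log2 fold was -0.02, 0.01 and -0.04.

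**Figure D1:**
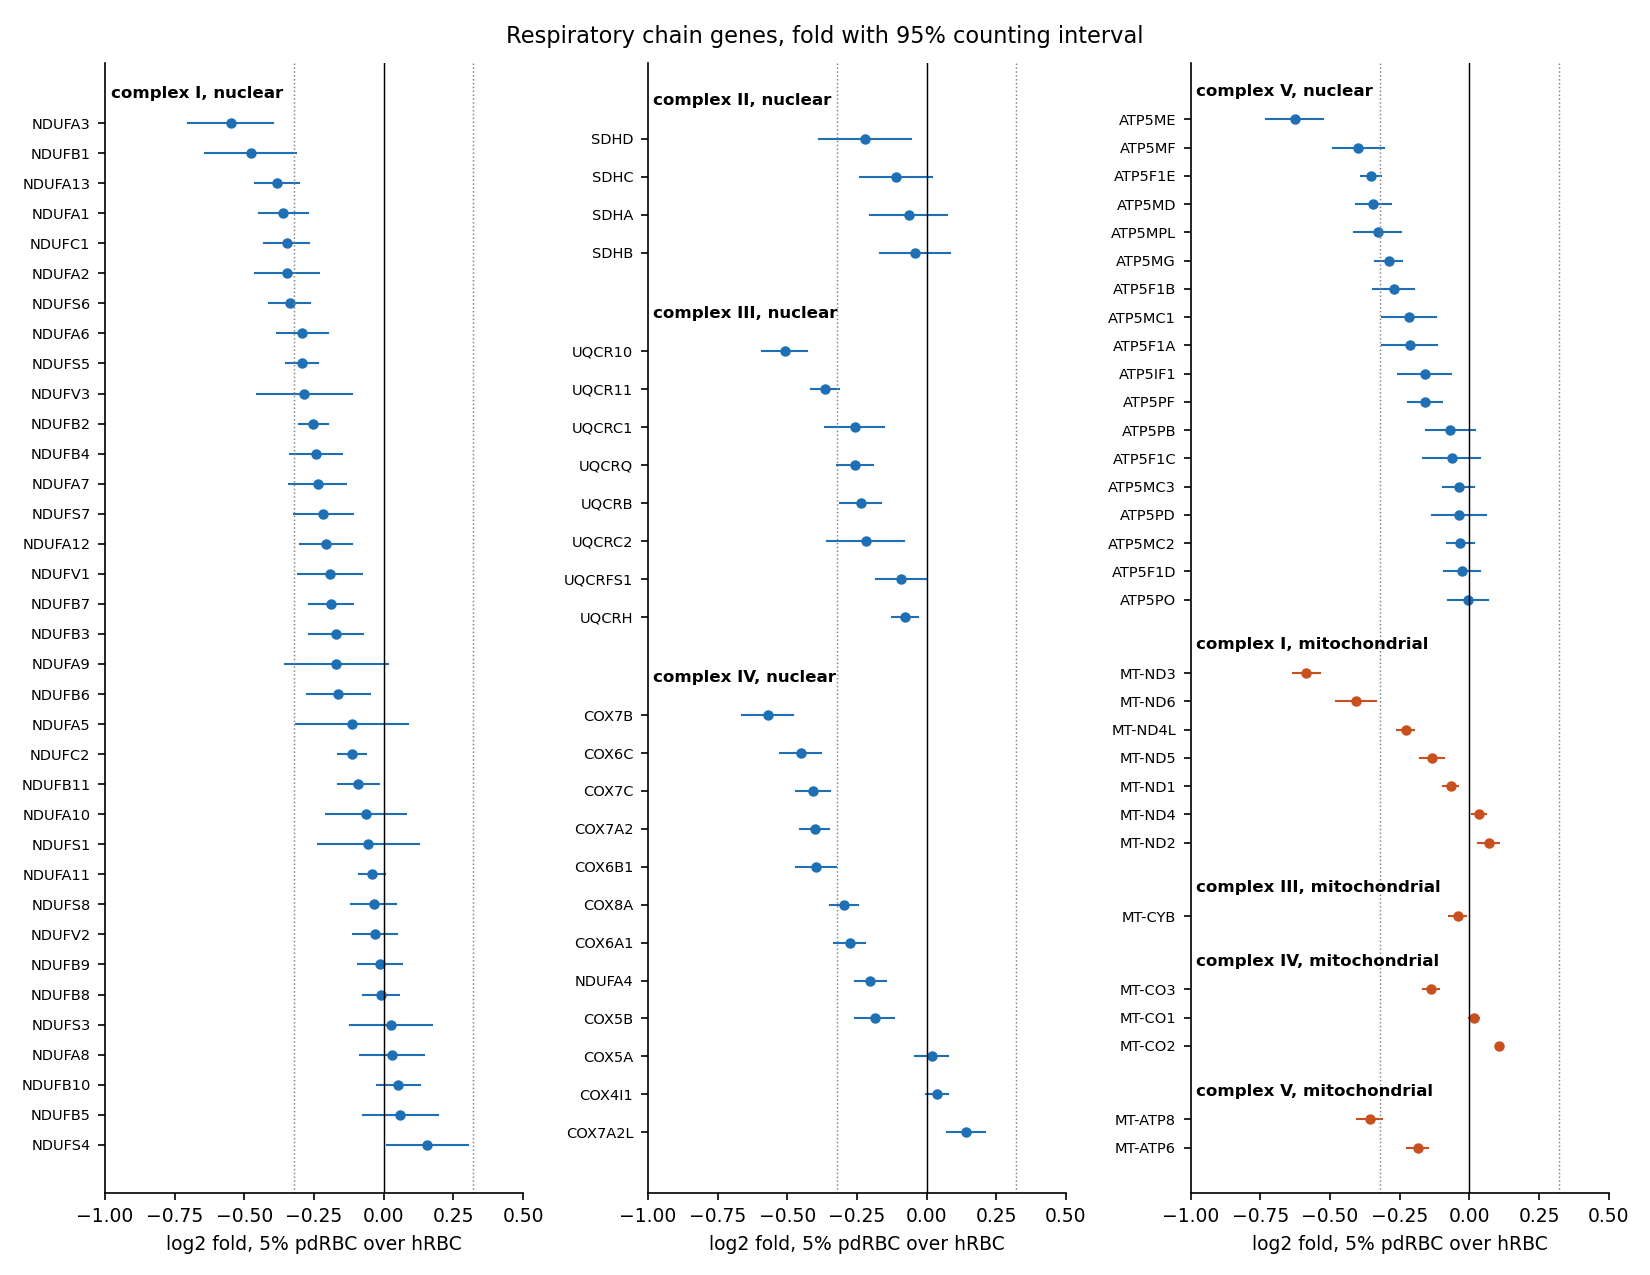
Log2 fold (5% pdRBC over hRBC) of respiratory chain genes, grouped by complex and genome, with 95% counting intervals as bars and dotted lines at 1.25-fold lower and higher. Most nuclear genes (blue) lie left of 0, from ATP5ME at -0.63 to NDUFS4 at 0.16, while the 13 mitochondrial genes (orange) run from MT-ND3 at -0.59 to MT-CO2 at 0.11.

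The nuclear genes of the chain are known targets of NRF1, of ETS family factors such as GABP, and of YY1. The RefSeq promoter windows (GRCh38.p14, 250 bases before to 50 after the start) of 66 of the 78 nuclear members were searched on both strands for the palindromic NRF1 motif (10 letters, in capitals in the first 4 windows below), CCGGAAG (ETS) and AAGATGGCG (YY1). The NRF1 letters were found in 4 members (6.06%), against 1.52% of 27305 genes, the ETS letters in 21 (31.8%, against 12.2%), and the YY1 letters in 9 (13.6%, against 2.14%). A match describes these letters and is not a measured site. The windows below, 30 bases each on the strand of the gene, show the motif or its reverse complement in capitals. All 4 NRF1 matches come first. ETS matches follow in ATP5ME and COX4I1, which have the lowest and the highest fold of members with these letters, and in UQCR11. YY1 matches are shown in NDUFS4, the highest nuclear member, and UQCRC1.
NDUFB4, NRF1, chr3:120596167-120596196, plus strand: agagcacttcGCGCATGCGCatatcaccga
SDHD, NRF1, chr11:112086753-112086782, plus strand: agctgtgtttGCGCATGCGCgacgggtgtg
ATP5F1C, NRF1, chr10:7788145-7788174, plus strand: gggagcttcgGCGCATGCGCgctgaggcct
NDUFA8, NRF1, chr9:122159764-122159793, minus strand: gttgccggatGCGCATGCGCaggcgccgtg
ATP5ME, ETS, chr4:674255-674284, minus strand: tgcaggttgtgCTTCCGGtgcggaggtcag
UQCR11, ETS, chr19:1605561-1605590, minus strand: tccaaccctcgCCGGAAGttactgtaagtg
COX4I1, ETS, chr16:85799686-85799715, plus strand: ggccttgctctCTTCCGGtcgcgggacacc
NDUFS4, YY1, chr5:53560650-53560679, plus strand: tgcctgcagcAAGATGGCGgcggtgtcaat
UQCRC1, YY1, chr3:48609604-48609633, minus strand: ctgcagctggAAGATGGCGgcgtccgtggt

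Complex I, the NADH dehydrogenase, has 36 nuclear members here, which summed to 5639 CPM in hRBC and 5037 CPM in 5% pdRBC cells, 1.12-fold lower (1.11 to 1.13). The 7 core subunits, which carry the flavin and iron-sulfur clusters, stood closest to their hRBC level, at a summed 687 and 645 CPM (1.06-fold lower, 1.03 to 1.09). None of them was counted as lower. Among them NDUFS1 was at 35.5 and 34.2 CPM, NDUFS3 at 52.2 and 53.1, NDUFS8 at 172 and 168, and NDUFV2 at 179 and 175 CPM in hRBC and 5% pdRBC cells, all with intervals that hold 1. NDUFS7 was at 108 and 93.3 CPM and NDUFV1 at 92.2 and 80.7 CPM, with intervals that lie below the hRBC level. The 29 accessory subunits, which surround the core and are not needed for electron transfer itself, were 1.13-fold lower in sum (1.12 to 1.14), and 7 of them were counted as lower. NDUFA3 (GRCh38, here and for all positions, chromosome 19, 54102728 to 54109257) was the lowest, at 58.4 CPM in hRBC and 39.9 CPM in 5% pdRBC cells, 1.46-fold lower (1.32 to 1.63). NDUFB1 followed at 49.6 and 35.7 CPM (1.39-fold lower, 1.24 to 1.56), and NDUFA13, which was first described as the cell death regulator GRIM-19, at 197 and 151 CPM (1.30-fold lower, 1.23 to 1.38). NDUFA1, NDUFA2, NDUFC1 and NDUFS6 were 1.26 to 1.28-fold lower. At the other end NDUFS4 (chromosome 5, 53560633 to 53683340), an accessory subunit whose loss causes Leigh syndrome, was at 50.5 CPM in hRBC and 56.2 CPM in 5% pdRBC cells, 1.11-fold higher (1.01 to 1.23). NDUFA11, the nuclear complex I gene with the most UMIs, was nearly level at 510 and 496 CPM (1.03-fold lower, 0.996 to 1.06).

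Complex II, succinate dehydrogenase, is also an enzyme of the citric acid cycle and the only complex made wholly from nuclear genes. Its 4 subunits summed to 249 CPM in hRBC and 232 CPM in 5% pdRBC cells, 1.07-fold lower (1.02 to 1.12), and none was counted as lower. Among cells of 20000 or more UMIs the sum was instead higher in 5% pdRBC cells, at 214 CPM in hRBC and 264 CPM in 5% pdRBC cells. The flavoprotein SDHA was at 60.6 and 58.0 CPM and the iron-sulfur subunit SDHB at 73.7 and 71.6 CPM, both with intervals that hold 1. Of the membrane anchors SDHC was at 69.8 and 64.7 CPM, again with an interval that holds 1, and SDHD at 44.4 and 38.1 CPM (1.16-fold lower, 1.04 to 1.31).

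Complex III, which passes electrons from coenzyme Q to cytochrome c, was the nuclear group with the largest difference in sum. Its 8 nuclear members went from 2034 CPM in hRBC to 1719 CPM in 5% pdRBC cells, 1.18-fold lower (1.16 to 1.20), and all 8 were below their hRBC level. UQCR10 (chromosome 22, 29767369 to 29770413), a small subunit, was lowest at 211 and 148.5 CPM (1.42-fold lower, 1.35 to 1.5). UQCR11, another small subunit, was at 491 and 381 CPM (1.29-fold lower, 1.24 to 1.33), and these were the 2 counted as lower. The large core proteins UQCRC1 (107 and 89.8 CPM) and UQCRC2 (62.8 and 53.9 CPM) were 1.20-fold and 1.16-fold lower. The Rieske iron-sulfur protein UQCRFS1 was at 139 and 130 CPM. UQCRH, a hinge subunit and the nuclear member of this complex with the most UMIs, differed least of the 8, at 516 and 489 CPM (1.06-fold lower, 1.02 to 1.09). UQCRH has a near copy, UQCRHL, with 17 UMIs in all, so few reads were counted for the copy.

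Complex IV, cytochrome c oxidase, showed the widest split among its nuclear subunits. The 12 nuclear members summed to 4208 CPM in hRBC and 3634 CPM in 5% pdRBC cells, 1.16-fold lower (1.14 to 1.17), with 5 counted as lower and 3 above their hRBC level. COX7B (chromosome X, 77899438 to 77907373) was lowest at 157 and 106 CPM (1.48-fold lower, 1.39 to 1.58). It was followed by COX6C at 241 and 176 CPM, COX7C at 355 and 268 CPM, COX7A2 at 473 and 358 CPM, and COX6B1 at 243 and 185 CPM, which were 1.32 to 1.37-fold lower. All 5 are small subunits that surround the catalytic core. COX4I1, the largest nuclear subunit and the one with the most UMIs, was at 672 CPM in hRBC and 690 CPM in 5% pdRBC cells (1.03-fold higher, 0.999 to 1.06), and COX5A at 303 and 306 CPM (1.01-fold higher, 0.971 to 1.06).

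For COX4I, COX6A, COX6B and NDUFA4, 1 form of each isoform pair held nearly all UMIs. COX4I2 and COX6A2 had 0 UMIs in both deposited matrices, and COX6B2 and NDUFA4L2 had 2 UMIs each over both. At this depth 0 UMIs leave room for levels up to 0.225 CPM in hRBC and 0.186 CPM in 5% pdRBC cells (3 counts each). Their measured partners COX6A1 (398 and 329 CPM) and NDUFA4 (389 and 338 CPM) were 1.21-fold and 1.15-fold lower. COX7A2 and COX7A2L went in opposite directions. COX7A2L (chromosome 2, 42333546 to 42425088), which holds complexes III and IV together in supercomplexes, was at 229 CPM in hRBC and 253 CPM in 5% pdRBC cells, 1.1-fold higher (1.05 to 1.16), while COX7A2 was 1.32-fold lower (1.27 to 1.37). COX7A2L and NDUFS4 were the only nuclear members whose interval lay above 1.

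Complex V, the ATP synthase, was 1.15-fold lower in sum (1.14 to 1.17), with 4966 CPM in hRBC and 4301 CPM in 5% pdRBC cells over 18 nuclear members. All 18 were below their hRBC level, the nearest to it being ATP5PO, the stalk subunit that links the catalytic head to the membrane, at 220 and 219 CPM. ATP5ME (chromosome 4, 672436 to 674338, minus strand), the e subunit of the membrane part, was the lowest of all 91 genes, at 132 and 85.5 CPM (1.54-fold lower, 1.44 to 1.66). ATP5MF, ATP5MD and ATP5MPL, further small membrane subunits, were 1.32-fold, 1.27-fold and 1.26-fold lower. ATP5F1E, the epsilon subunit of the catalytic head and the nuclear member with the most UMIs, was at 1031 and 808 CPM (1.28-fold lower, 1.25 to 1.31). The large subunits of the head differed less: ATP5F1A was at 123 and 106 CPM, and ATP5F1B, which carries the catalytic sites, at 220 and 183 CPM (1.16-fold and 1.21-fold lower). The 3 genes for the same proton-carrying c subunit were not alike in size, with ATP5MC1 1.16-fold lower (126 and 108 CPM, 1.09 to 1.24), and ATP5MC2 (503 and 492 CPM) and ATP5MC3 (350 and 341 CPM) near level with intervals that hold 1. The inhibitor ATP5IF1, which blocks the enzyme from running backwards, was at 131 and 117 CPM (1.12-fold lower, 1.05 to 1.19).

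**Figure D2:**
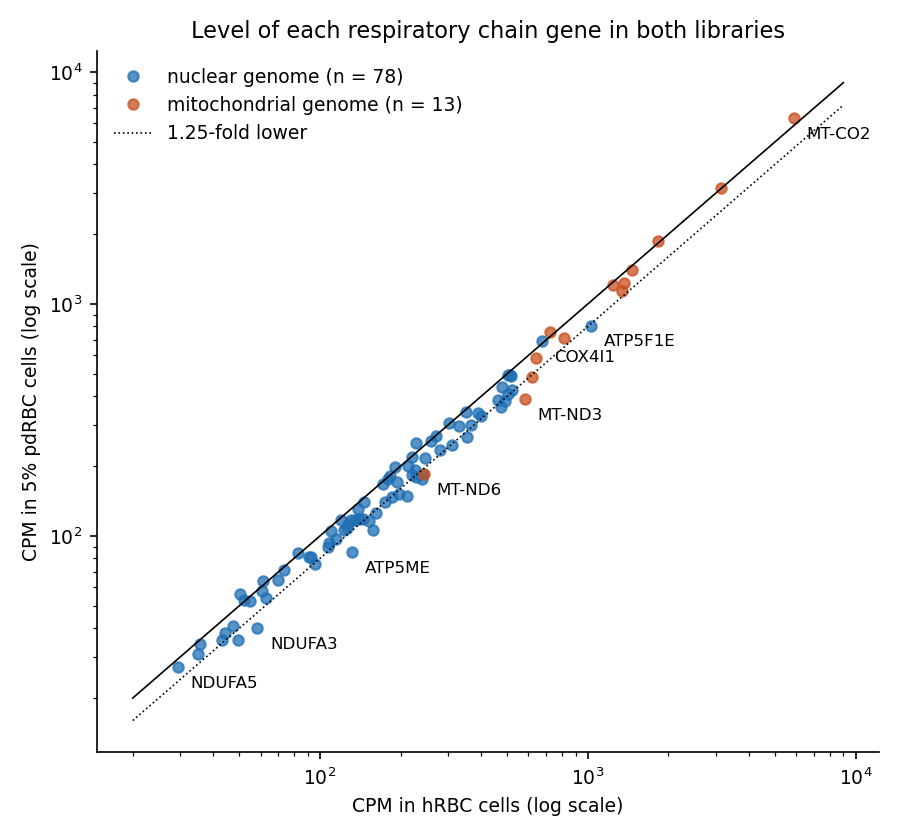
Level of each of the 91 genes in both libraries (CPM, both axes on a log scale), with the solid line at equal levels and the dotted line at 1.25-fold lower. Points for nuclear genes (blue) lie mostly between both lines, and ATP5ME, NDUFA3, MT-ND3 and MT-ND6 lie below the dotted line.

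The mitochondrial genome is transcribed as long RNAs from both strands and cut into messages, of which 2 hold a pair of overlapping reading frames each (MT-ATP8 with MT-ATP6, and MT-ND4L with MT-ND4). The complex IV genes held most of these UMIs. MT-CO1 was at 3131 CPM in hRBC and 3166 CPM in 5% pdRBC cells, with an interval that holds 1. MT-CO2, the member with the most UMIs of all, was at 5864 and 6316 CPM (1.08-fold higher, 1.07 to 1.09), and MT-CO3 at 1360 and 1236 CPM (1.1-fold lower, 1.08 to 1.12). MT-CYB, the only complex III gene of this genome, was at 1247 and 1211 CPM (1.03-fold lower, 1.01 to 1.05).

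Among the complex I genes of the mitochondrial genome, MT-ND1 was at 1467 and 1400 CPM, MT-ND2 at 725 and 760 CPM, MT-ND4 at 1832 and 1875 CPM, and MT-ND5 at 643 and 585 CPM. These 4 were within 1.1-fold of their hRBC level. MT-ND3 (mitochondrial genome, 10059 to 10404) stood apart at 583 and 389 CPM, 1.5-fold lower (1.45 to 1.55). MT-ND6 (14149 to 14673), the only member read from the other strand, was at 244 and 184 CPM (1.33-fold lower, 1.26 to 1.39). In both messages with 2 reading frames the upstream frame was further down than the downstream one in the pooled libraries. MT-ATP8 was at 620 and 484 CPM (1.28-fold lower, 1.24 to 1.32) and MT-ATP6 at 814 and 716 CPM (1.14-fold lower, 1.11 to 1.17). MT-ND4L was at 1336 and 1140 CPM (1.17-fold lower, 1.15 to 1.20) and MT-ND4 1.02-fold higher (1.01 to 1.04). Among cells of 5000 or more UMIs this order held for MT-ND4L and MT-ND4 (log2 folds -0.0567 and 0.0108). For MT-ATP8 and MT-ATP6 it turned round there (-0.136 and -0.225). How reads in the overlap were shared between the frames is not given in the sources used here.

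The direction of MT-ND6 depended on how cells of different depth were pooled. In hRBC cells its level was 642 CPM at 1000 to under 2000 UMIs per cell, 541 at 2000 to under 5000, 242 at 5000 to under 10000, 105 at 10000 to under 20000, and 80.3 CPM at 20000 UMIs or more. In 5% pdRBC cells it was 1128, 555, 197, 153 and 123 CPM in the same ranges. It was thus higher in 5% pdRBC cells in 4 of 5 ranges and 1.33-fold lower in the pooled libraries, of which hRBC holds most of the shallow cells. MT-ND5 and MT-CYB were likewise higher in 5% pdRBC cells in 4 of 5 ranges and lower in the pooled libraries. Both were lower only at 5000 to under 10000 UMIs. MT-ND3 did not turn in this way above 2000 UMIs: it was at 625, 634, 569 and 536 CPM in hRBC cells and at 605, 421, 362 and 314 CPM in 5% pdRBC cells from 2000 UMIs upwards.

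The subunits that were lowest in 5% pdRBC cells were those with the shortest coding sequence, a pattern looked at after the folds were known. Coding length was taken from the principal protein-coding transcript of each gene in GENCODE 29. The 20 nuclear members with fewer than 300 coding nucleotides had a median log2 fold of -0.36, all 20 were below 0, and 15 were counted as lower. The 26 members of 300 to 449 nucleotides had a median of -0.23 with 4 counted as lower, namely NDUFB1, NDUFA13, NDUFS6 and COX7A2. In this class 25 were below 0, all but COX7A2L. The 32 members of 450 nucleotides or more had a median of -0.06, with 25 below 0 and 0 counted as lower. Within this last class the medians did not rise further with length. They were -0.01 at 450 to 749 nucleotides (17 genes, 11 below 0) and -0.09 at 750 to 1499 (11 genes, 10 below 0). At 1500 nucleotides or more the median was -0.14 (4 genes, all 4 below 0). The order of the 3 classes held within complexes that have all 3 in number. In complex I the medians were -0.35, -0.24 and -0.03 (5, 15 and 16 genes), and in complex V -0.35, -0.16 and -0.06 (5, 6 and 7 genes). ATP5F1E, at 153 nucleotides, ATP5ME at 207 and COX7B at 240 lie in the shortest class, and NDUFS1, at 2181, is the longest member. Among the short ones UQCRH, UQCRQ, COX8A, NDUFA4 and NDUFB3 were not counted as lower. Spearman's rho between coding length and log2 fold was 0.65 over the 78 nuclear members and 0.68 over the 13 mitochondrial ones, given as a description, since all points share the same libraries. With the length of the whole transcript rho was 0.11 over the nuclear members.

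Cytosolic ribosomal protein genes, which are also short, showed the same order. They had median log2 folds of -0.42 under 300 coding nucleotides (11 genes, 8 counted as lower), -0.20 at 300 to 449 (32 genes, 6 lower) and 0.02 at 450 or more (42 genes, 0 lower). RPS29 (511 and 310 CPM), RPL37A (1388 and 949 CPM) and RPS27 (945 and 660 CPM), whose proteins are among the smallest of the ribosome, were 1.65-fold, 1.46-fold and 1.43-fold lower. Other nuclear genes with 1000 or more UMIs lay nearer to 0, with medians of -0.04 (149 genes, 11.4% lower), -0.002 (297 genes, 3.37% lower) and 0.01 (4100 genes, 1.29% lower) in the same classes. By length of the whole transcript, these other genes had a median of -0.35 under 500 nucleotides (8 genes, all 8 below 0, 50% lower). At 500 to 749 nucleotides their median was -0.10 (87 genes, 9.20% lower). Their rho with log2 fold was 0.19 for transcript length and 0.11 for coding length. The part of coding or transcript length in the lower levels was not tested.

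**Figure D3:**
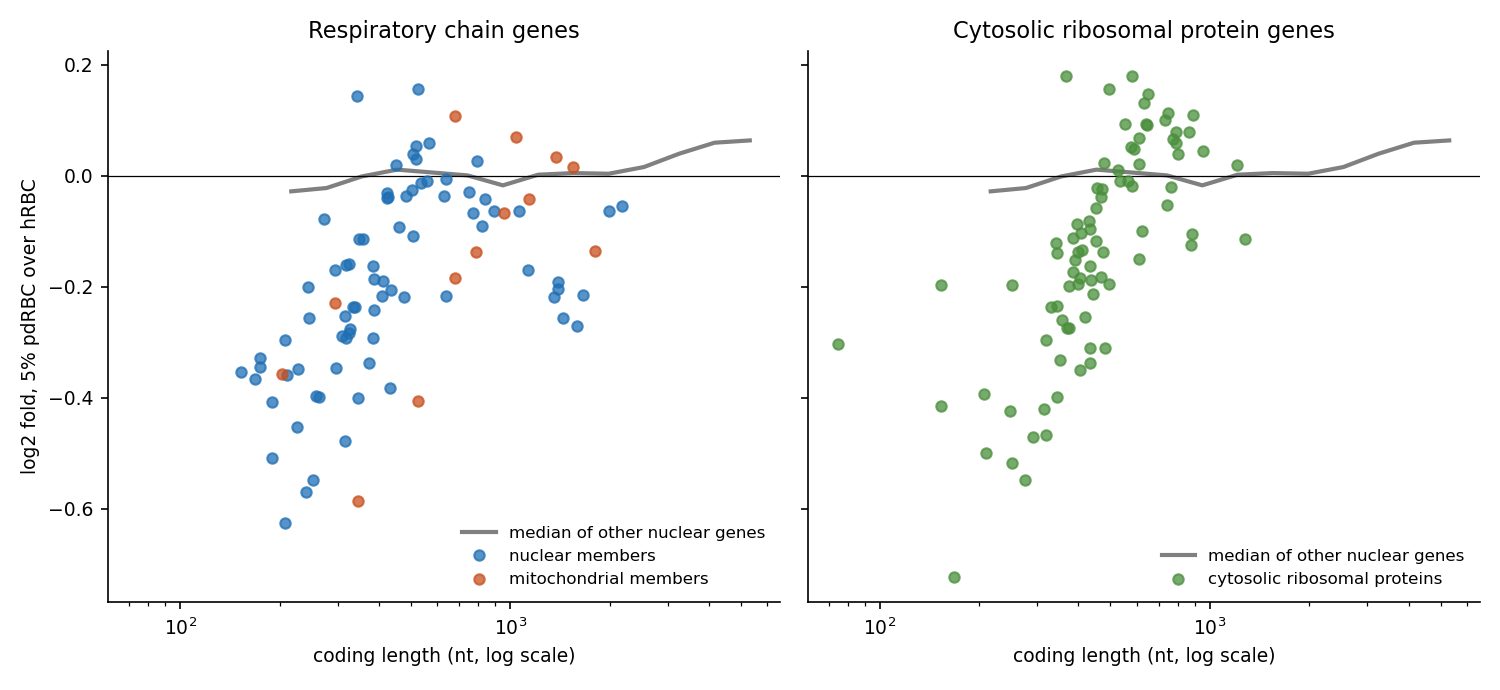
Log2 fold (5% pdRBC over hRBC) against coding length in nucleotides (log scale), for respiratory chain genes on the left and cytosolic ribosomal protein genes on the right, with the grey line giving the median of other nuclear genes of 1000 or more UMIs. In both panels most points lie below 0 under about 450 nucleotides, where the grey line stays within -0.03 to 0.01. The exceptions are COX7A2L (342 nucleotides, 0.14) and RPL22L1 (366 nucleotides, 0.18).

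Depth per cell moved with the size of the nuclear difference. In hRBC cells the nuclear members summed to between 16203 and 18298 CPM in all 5 ranges of UMIs per cell. In 5% pdRBC cells they summed to 8262 CPM at 1000 to under 2000 UMIs (44 cells, against 1180 in hRBC), 12393 at 2000 to under 5000, 14302 at 5000 to under 10000, 15035 at 10000 to under 20000, and 17712 CPM at 20000 UMIs or more (62 cells, against 59). The sum was therefore 1.98-fold lower (1.82 to 2.16) in the shallowest range, 1.13-fold and 1.15-fold lower in the ranges from 5000 to under 20000 UMIs that hold most 5% pdRBC UMIs, and 1.03-fold lower (1.02 to 1.05) in the deepest. Mitochondrial members took 5.12% of UMIs in the shallowest 5% pdRBC cells against 2.60% in hRBC, and 1.67% against 1.71% in the deepest. Other genes differed in the shallowest range too. Ribosomal protein genes held 14.2% of UMIs in hRBC and 7.21% in 5% pdRBC cells there, and MALAT1 was at 10289 and 22355 CPM. Other nuclear genes with 1000 or more UMIs had medians there of -0.78 under 300 coding nucleotides, -0.62 at 300 to 449 and 0.23 at 450 or more. In the deepest range 42 of 78 nuclear genes were below 0, with a median of -0.03. By complex, the nuclear sum was higher there in 5% pdRBC cells for complex II (214 and 264 CPM) and near level for complex IV (4511 and 4556 CPM). It was lower for complexes I (5997 and 5912 CPM), III (2191 and 1868 CPM) and V (5386 and 5112 CPM). The order by coding length was still present there, with medians of -0.23 under 300 nucleotides (20 of 20 below 0), -0.08 at 300 to 449 and 0.21 at 450 or more (7 of 32 below 0). ATP5ME was lower in 5 of 5 ranges, at 135 and 81.2 CPM in the deepest, and NDUFA3, UQCR10 and COX7B were lower in all 5 as well. NDUFS4 was lower below 5000 UMIs and higher in the 3 ranges above, at 58.2 and 72.7 CPM in the deepest. With each cell of 2000 or more UMIs thinned to 2000 (1375 hRBC and 1557 5% pdRBC cells, with 1180 and 44 shallower ones left out), the median cell held 33 nuclear-member UMIs in hRBC and 28 in 5% pdRBC, and 39 and 37 mitochondrial-member UMIs.

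**Figure D4:**
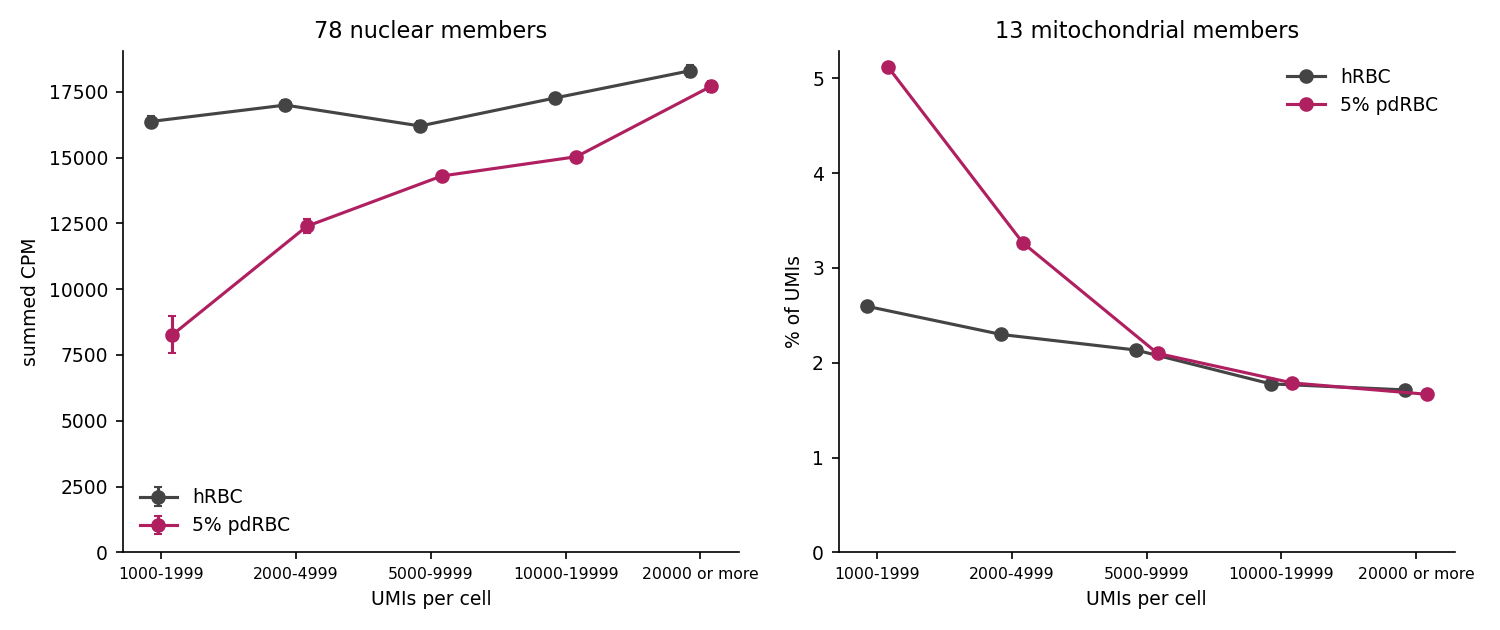
Summed level of the 78 nuclear members (left, CPM, bars are 95% counting intervals) and share of UMIs from the 13 mitochondrial members (right, percent, no bars drawn) in cells grouped by UMIs per cell. The 5% pdRBC line for nuclear members climbs from 8262 to 17712 CPM while the hRBC line stays between 16203 and 18298 CPM.

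The summed nuclear members fell across cells sorted by their mitochondrial share. The sorting itself sets the direction of the mitochondrial members. When the cells of each library were split into 5 equal parts by their mitochondrial share, nuclear members summed to 18221 CPM in the hRBC part with the lowest share and stepped down to 15143 CPM in the part with the highest. In 5% pdRBC cells they went from 15809 to 14074 CPM. With mitochondrial UMIs taken out of the denominator, the values were 18451 and 15716 CPM in hRBC and 15974 and 14598 CPM in 5% pdRBC cells. Nuclear complex III did not fall in 5% pdRBC cells, at 1693 CPM in the part with the lowest share and 1731 CPM in the highest. The median cell depth also went down across these parts, from 7680 to 1625 UMIs in hRBC and from 10313 to 7281 UMIs in 5% pdRBC cells, and its part in this was not tested.

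Clustering without the respiratory chain and other mitochondrial genes gave 11 clusters, all with endothelial markers, and the nuclear sum was compared within each. Cells of a cluster still differed in depth, with medians of 2042 and 10402 UMIs per hRBC and 5% pdRBC cell in cluster 0 and of 1504 and 6427 in cluster 1, while cluster 2 (11536 and 11075), cluster 4 (9221 and 8602) and cluster 6 (13739 and 11947) were closer. The part of depth in these values was not tested. The 5 clusters with the most UMIs in both libraries were lower in 5% pdRBC cells in each case. Cluster 0, led by the cell-cycle genes CDK1, UBE2C and TOP2A, was at 17198 and 14930 CPM (1.15-fold lower), cluster 2, led by EGR1 and GEM, at 16105 and 14128 CPM (1.14-fold lower), and cluster 4, led by SOX5 and GJA5, at 16241 and 13823 CPM (1.17-fold lower). Cluster 6, led by FABP4 and MGP, had the highest nuclear level of these 5, at 21572 and 19487 CPM (1.11-fold lower), and cluster 1, which holds 1035 hRBC and 58 5% pdRBC cells, was at 16579 and 15875 CPM (1.04-fold lower). Cluster 9, led by the stress-response genes DDIT3 and TRIB3, had the highest level of all in hRBC, at 25662 CPM in 15 cells, against 17264 CPM in 30 5% pdRBC cells. Cluster 8, of similar size (9 and 20 cells), went the other way, at 14658 and 15472 CPM, with an interval that holds 1 and 39 of 78 members below 0.

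Cluster 3 (35 hRBC and 52 5% pdRBC cells) had the lowest nuclear and the highest mitochondrial levels of the clusters. Its nuclear members summed to 6453 CPM in hRBC and 4620 CPM in 5% pdRBC cells, while mitochondrial members took 5.35% and 7.82% of its UMIs. The long nuclear RNAs MALAT1 (26809 and 29884 CPM) and NEAT1 (10147 and 13156 CPM) were high there, against 7906 and 7702 CPM for MALAT1 and 1987 and 2432 CPM for NEAT1 over all kept cells. Its leading genes were mixed, with ASPM, SPATA5, PRIM2 and SH3RF3 first and MIR137HG, RAPGEF4, MEG8 and CASC15 among the others. Ribosomal protein genes held only 4.55% and 3.95% of its UMIs, against 17.1% and 16.2% over all cells. Without this cluster the nuclear sum stayed 1.14-fold lower. Cluster 10, with 14 hRBC cells and 0 of 5% pdRBC, was next in hRBC cells, with nuclear members at 10871 CPM, mitochondrial members at 2.89% of UMIs, MALAT1 at 22083 CPM and ribosomal protein genes at 6.12%.

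**Figure D5:**
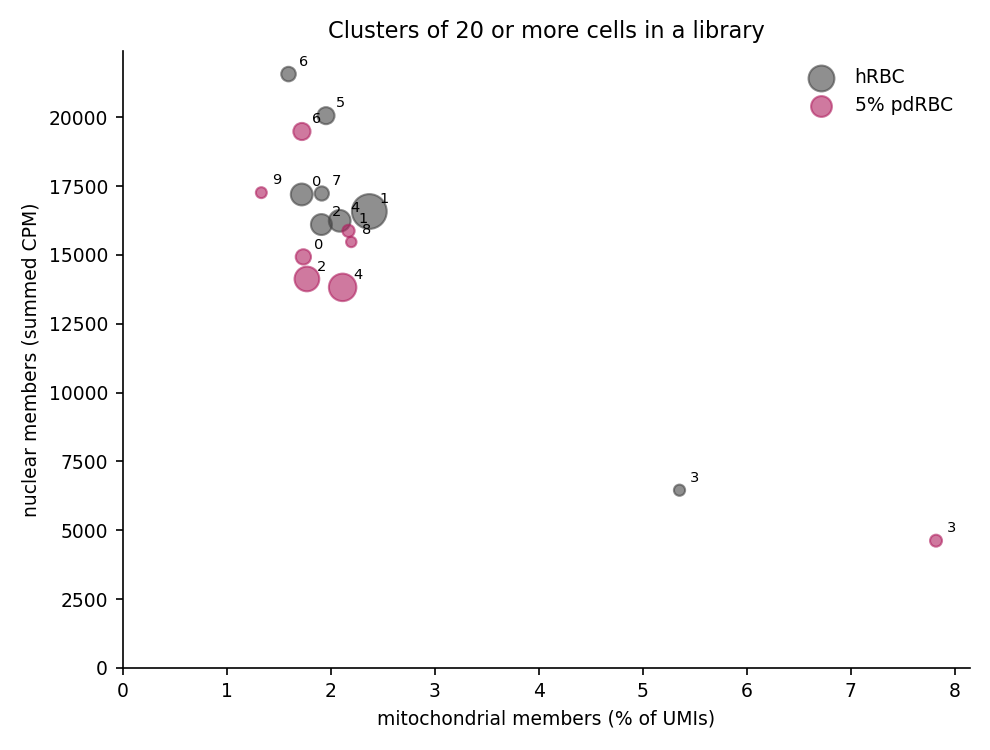
Nuclear respiratory chain members (summed CPM) against mitochondrial members (percent of UMIs) for each cluster with 20 or more cells in the library plotted, in hRBC (grey) and 5% pdRBC (magenta) cells, with point area growing with the number of cells. Cluster 3 lies alone at 5.35% and 7.82% mitochondrial UMIs and 6453 and 4620 CPM, and all other points drawn lie between 1.33% and 2.37%.

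Members with and without the NRF1, ETS and YY1 letters in their promoter windows overlapped in fold. Those with the ETS letters had a median log2 fold of -0.22 (-0.63 to 0.04) and the 45 without -0.19 (-0.57 to 0.16). With the YY1 letters it was -0.17 (-0.29 to 0.16) and without -0.21, and the 4 members with the NRF1 letters ran from -0.24 in NDUFB4 to 0.03 in NDUFA8. The factors themselves were near level or somewhat higher in 5% pdRBC cells: NRF1 was at 17.2 and 18.6 CPM, GABPA at 15.9 and 16.2 CPM, and YY1 at 121 and 137 CPM (1.13-fold higher, 1.06 to 1.21). PPARGC1A, the coactivator PGC-1 alpha, had 0 UMIs in both libraries. Over the 13 measured nuclear regulators of mitochondrial genes the median was 0.06 and 0 were counted either way. SIRT1 (10.9 and 13.3 CPM), GABPB1 (22.0 and 25.4 CPM) and NFE2L1 (84.3 and 95.5 CPM, 1.13-fold higher) differed most, though the intervals of SIRT1 and GABPB1 hold 1.

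Genes whose products help to build complexes I and IV had medians near 0. Of 16 complex I assembly genes the median log2 fold was -0.01, with 1 counted as higher, NDUFAF1 (10.4 and 13.4 CPM, 1.28-fold higher, 1.03 to 1.60). NDUFAF8 (239 and 201 CPM) was 1.19-fold lower and FOXRED1 (7.87 and 6.82 CPM) had an interval that holds 1. Of 24 complex IV assembly genes the median was -0.03 with 1 counted as lower, PET100 (35.4 and 21.1 CPM, 1.67-fold lower, 1.45 to 1.93), and TACO1 (30.1 and 24.2 CPM) was 1.25-fold lower, just under the threshold. The median was -0.13 over the 3 measured complex II assembly genes, 0.02 over the 6 of complex III and 0.11 over the 4 of complex V, with 0 counted either way. TMEM70, which helps to build the ATP synthase, was 1.17-fold higher (33.3 and 38.8 CPM, 1.03 to 1.32). Cytochrome c, CYCS, which carries electrons to complex IV, was at 132 and 111 CPM (1.19-fold lower, 1.12 to 1.28), and the 15 measured genes of electron carriers and coenzyme Q had a median of -0.10 with 0 counted.

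The other mitochondrial lists lay between the subunits and the median of all genes. The 77 measured mitochondrial ribosomal protein genes had a median of -0.09 with 4 counted as lower, among them MRPS33 (52.2 and 41.2 CPM) and MRPL27 (62.8 and 49.6 CPM), both 1.27-fold lower. The 29 genes for mitochondrial DNA and RNA had a median of -0.09 with 2 lower, SUPV3L1 (10.2 and 7.87 CPM, 1.29-fold lower, 1.01 to 1.66) and SLIRP, whose product holds mitochondrial messages with LRPPRC (97.4 and 66.6 CPM, 1.46-fold lower, 1.35 to 1.59). TFAM, which packs and transcribes the mitochondrial genome, was level at 24.1 and 23.9 CPM. Citric acid cycle genes had a median of -0.06, with IDH3G (43.0 and 34.2 CPM, 1.26-fold lower) the 1 of 18 counted, and FH (53.9 and 44.3 CPM) 1.22-fold lower. Fatty acid oxidation genes (10, median -0.01), carriers and porins of the membranes (13, -0.05) and cristae genes (10, -0.05) had 0 counted, with ACADVL (116 and 94.2 CPM) 1.23-fold lower and MPC1 (34.2 and 41.1 CPM) 1.20-fold higher. Of 23 import and chaperone genes (median -0.06) TIMM8B was the 1 counted, at 142 and 113 CPM (1.26-fold lower, 1.18 to 1.34). TIMM8B overlaps SDHD on the opposite strand.

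Of 7 mitochondrial antioxidant genes (median -0.01) TXNRD2 was lower (174 and 130 CPM, 1.34-fold, 1.26 to 1.42), and GPX4, which reduces lipid peroxides, was 1.24-fold higher (914 and 1135 CPM, 1.21 to 1.27), just under the threshold. The 10 measured genes of the mitochondrial stress response had a median of -0.15. DDIT3 was 1.53-fold higher (13.2 and 20.3 CPM, 1.28 to 1.86), and the 3 counted as lower, PHGDH (5.17 and 2.79 CPM), PSAT1 (7.5 and 5.27 CPM) and MTHFD2 (47.1 and 34.6 CPM), belong to serine and one-carbon metabolism. Over all 85 measured cytosolic ribosomal protein genes the median was -0.12 with 14 lower, and over the 5 long nuclear RNAs it was 0.17 with 0 counted.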

How the data were processed

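Each deposited matrix gives whole-number UMI counts, not normalized, from Cell Ranger 7.0.0 on GRCh38, per the submitters' processing notes. Annotation release, strand use and further filters: not given in the sources. No deposited barcode has under 500 UMIs. From these counts, cells were kept at 1000 UMIs, 500 genes and 20% mitochondrial UMIs as limits, with no doublet caller. Sums of UMIs over the kept cells of a library, divided by their total, gave CPM. A fold has 0.5 UMIs added to each sum, with a 95% Clopper-Pearson (exact) interval from how the gene's UMIs split between libraries, tested on simulated data. No p-value was computed. Levels of different genes are not per length and are not ranked.

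Clustering used Scanpy 1.11.5 (2000 variable genes, 30 components, 15 neighbours, Leiden resolution 0.5, python-igraph 0.11.9), without members or mitochondrial genes. Other software was Python 3.11.15, NumPy 2.4.6, SciPy 1.17.1, pandas 2.3.3 and matplotlib 3.10.9. Gene positions, coding lengths and overlaps are from GENCODE 29, in which all 91 members matched. Of the 91, some overlap a gene on the other strand (NDUFA3 with TFPT, ATP5ME with MYL5), and without known strand use their reads cannot be told apart. Others overlap one on the same strand (NDUFA13 with YJEFN3, NDUFC1 with MGARP, ATP5MF with PTCD1), and their counts are uncertain.

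The members and lists were chosen with earlier results of these data known. Named are all mitochondrial genes, per complex the highest, the lowest and the most counted member, isoform families, complex I core (1 gene is not reported here), complex II, ATP5IF1, and up to 3 genes per list by size of fold. Further genes counted as lower, coding length classes and cluster values were chosen after their values were seen. Antisense RNAs, kinases and other symbols that only resemble ribosomal protein genes were taken out of those lists once seen. Alternatives varied the cell filter, depth, weighting, thinning, denominator, centring and clusters.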

Additional observations from a re-analysis of the deposited data

How the results depend on the processing

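The main values were a log2 fold of -0.20 for the summed nuclear members, -0.03 for the summed mitochondrial members, and 0 members higher and 22 lower at 1.25-fold. The nuclear sum was lower under each of the 13 alternatives run, and moved past its counting interval to -0.23 with every cell weighted equally and with cells thinned to 2000 UMIs, and to -0.21 with mitochondrial and ribosomal protein UMIs out of the denominator or with folds centred on the median of all genes. The mitochondrial sum was -0.0621 with all deposited barcodes, -0.0645 with a mitochondrial limit of 5%, -0.0615 with every cell weighted equally, -0.0463 with centred folds, and -0.0540 without the cluster with the highest mitochondrial share, an alternative chosen after seeing the data. It was above 0 with a stricter cell filter (0.00422), with cells of 5000 or more UMIs (0.0361) and with thinned cells (0.0484). In cells of 5000 or more UMIs 1 member was counted as higher, MT-ND6 (log2 fold 0.39). With thinned cells 34 members were counted as lower, where 4.25% of all genes were, and 32 when cells were weighted equally, where 10.6% of all genes were lower. Of the 91 members, 63 nuclear and 6 mitochondrial ones kept their sign under each alternative run, as did 21 of the 22 counted as lower, MT-ND6 being the exception. Keeping endothelial-like clusters alone changed nothing, since all clusters were so named. The cause of these differences was not tested. The number of shallow 5% pdRBC cells (44 under 2000 UMIs) limits the values there. No paired analysis was possible because each group is 1 library.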
